A study of Mus musculus with 12 samples.

Results

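Cell cycle and mitosis genes were followed as a list of 54 G1/S and G2/M genes, taken by symbol from an expression table of 24537 mouse genes, and all 54 were present. The rule names the genes by symbol and uses no measured value. RNA came from 12 primary cultures in 4 groups of 3, one culture per group from each of 3 mice of the strain Pdgfra-creERxLSL-tdTomato, in which a Pdgfra promoter drives an inducible Cre that can switch on a red reporter. The first group was Pdgfra (+) adipose-derived stromal cells (ADSCs) from subcutaneous adipose tissue, grown in DMEM with fetal bovine serum. The in vitro iSEPs (induced stratified epithelial progenitors) were epithelial cells obtained by converting such ADSCs in culture. The in vivo iSEPs were cultured from epithelial tissue that had been converted in the animal, and the keratinocytes were cultured from back skin. All 3 epithelial groups were kept in a serum-free keratinocyte medium, so cell type and medium cannot be told apart in any comparison with ADSCs. Age, sex, passage and the agents used for conversion were not stated in the labels.

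Cells enter the cycle when D-type cyclins and their kinases Cdk4 and Cdk6 phosphorylate the retinoblastoma protein, which releases E2F transcription factors to switch on genes for DNA replication. Later in the cycle the factors B-Myb and FoxM1 switch on the genes of mitosis, and the anaphase promoting complex then destroys the mitotic cyclins. In skin this programme runs in the basal layer and stops as keratinocytes differentiate. RNA from a whole culture averages over its cells, so fewer cycling cells and less RNA per cycling cell cannot be told apart.

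Depth was even, with 21010000 to 27770000 reads counted in genes per library and 10845 to 11349 genes at 1 FPKM (fragments per kilobase of exon, scaled to library depth) or more. Exons of 17 members overlap a gene on the opposite strand and those of Foxm1 one on the same strand, and Ccnd3, Ccnb1, Ccnb2, Tyms and Pcna have a named pseudogene, so their levels are less certain. The longest single overlaps were 977 bases for Kif20a and 818 for Ccnd1. Basal keratinocyte markers (Krt5, Krt14, Trp63, Cdh1 and Itga6) summed to 11.3 to 12.8 FPKM in ADSCs and to at least 9371 in the epithelial libraries. Stromal markers (Pdgfra, Col1a1, Col1a2, Vim and Postn) summed to 7350 to 8649 FPKM in ADSCs and to 24.6 to 275 elsewhere, so the split of ADSCs from epithelial cultures held. The labels among the 3 epithelial groups were not checked in this way. The in vivo library of mouse 3 stood apart from the other 2 in vivo libraries: its simple epithelial keratins Krt8 and Krt18 were at 103 and 95.5 FPKM against at most 0.166 and 2.79, and its Krt5 was at 3410 against at least 9252. Immune markers summed to 2.79 to 8.64 FPKM in ADSCs, 8.55 to 13.8 in in vitro iSEPs, 9.87 to 22.5 in in vivo iSEPs and 2.65 to 3.96 in keratinocytes. Outside ADSCs most of this was the lysosomal macrophage gene Cd68, at 9.78, 22.3 and 13.8 in in vivo iSEPs, whereas the macrophage gene Adgre1 was at 0 there and the T cell gene Cd3e was at 0 in every library. Melanocyte markers summed to at most 4.75 FPKM. Endothelial and pericyte markers summed to at most 8.99 FPKM, most of it from Pecam1 at 8.72 in the in vivo library of mouse 1.

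In these cultures the genes of the cycle did not move as one block. The G1 genes Ccnd1 and Cdk6 separated all epithelial cultures from ADSCs, the genes of origin licensing and the replication fork had their highest group means in keratinocytes, and 15 of the 16 genes of mitosis were lower there than in ADSCs, 1 of them past the test. In vivo iSEPs had no common level: the culture of mouse 1 held the highest values of the study for many members and the culture of mouse 3 the lowest.

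**Figure D1:**
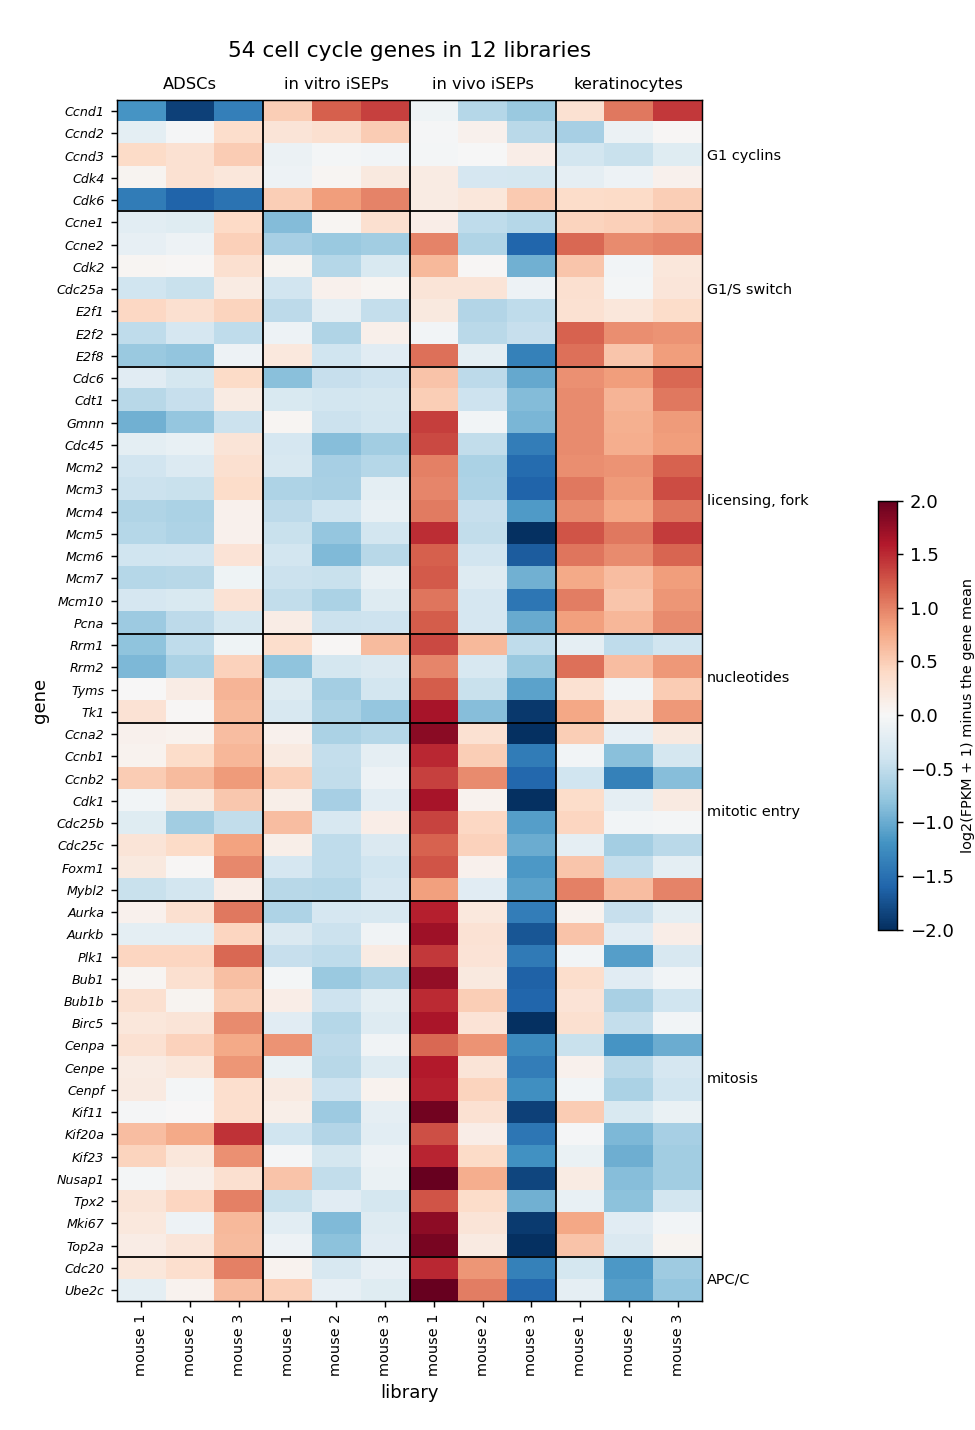
Heat map of the 54 genes (vertical axis, by role) in the 12 libraries (horizontal axis), coloured by log2(FPKM + 1) minus the gene's mean over all libraries, with the colour scale limited to 2 in either direction. The in vivo column of mouse 1 is high and that of mouse 3 low for nearly every gene outside the G1 group, and the replication genes are high in the 3 keratinocyte columns.

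Differences were tested with limma on log2(FPKM + 1) in 1 fit of all 12 libraries, and a gene was called at an adjusted p (Benjamini-Hochberg) below 0.05. Keratinocytes against ADSCs gave 12 members called higher and 2 lower, where 32.8% and 20.7% of the 12364 genes tested were called (53.5% in all). The 12 include E2f2, kept for testing through the keratinocyte libraries alone, which is also among the members lower in both kinds of iSEPs than in keratinocytes. Against the same ADSC libraries, in vitro iSEPs gave 2 higher and 2 lower (32.1% and 21.7% of all genes, 53.8% in all) and in vivo iSEPs 2 higher and 2 lower (27.6% and 20%, 47.6% in all). In vitro iSEPs against keratinocytes gave 6 lower and 0 higher (6.12% and 5.22%, 11.3% in all). In vivo iSEPs against the same keratinocytes gave 1 higher and 4 lower (3.41% and 4.08%, 7.48% in all), and in vivo against in vitro iSEPs gave 1 lower and 0 higher (0.946% and 0.679%, 1.63% in all). In this fit all 3 comparisons with ADSCs therefore called a smaller share of the members than of all genes. Values of the 2 groups did not overlap for 34 members in keratinocytes against ADSCs (69.5% of all genes), for 24 in in vitro iSEPs against ADSCs (63.7%) and for 4 in in vivo iSEPs against ADSCs (54.2%). They did not overlap for 26 members in in vitro iSEPs against keratinocytes (40.8%), for 7 in in vivo iSEPs against keratinocytes (27.8%) and for 3 between the kinds of iSEPs (15%). The fit takes 1 variance per gene from all 12 libraries, including the in vivo libraries, whose median SD over the 54 members was 1.30 on the log2 scale against 0.35 in ADSCs, 0.26 in in vitro iSEPs and 0.28 in keratinocytes.

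A fit without the 3 in vivo libraries, added after the data had been seen, called many more members among the remaining groups. It called 19 higher and 13 lower in keratinocytes against ADSCs (36.7% and 22.2% of all genes, 58.9% in all). It called 4 higher and 19 lower in in vitro iSEPs against the same ADSCs (35.3% and 24%, 59.3% in all), and 1 higher and 19 lower in in vitro iSEPs against keratinocytes (8.33% and 11.4%, 19.7% in all). The differences themselves were the same in both fits. Fits that held only the 2 groups compared called 35 members in keratinocytes against ADSCs (62.6% of all genes), 23 in in vitro iSEPs against ADSCs (53.1%), 4 in in vivo iSEPs against ADSCs (39.8%), 20 in in vitro iSEPs against keratinocytes (16.7%), 1 in in vivo iSEPs against keratinocytes (3.43%) and 0 between the kinds of iSEPs (0.00809%). In both of these alternatives the share of the 54 members called between keratinocytes and ADSCs was no longer below that of all genes.

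The calls varied in how they held. Of the 14 members called between keratinocytes and ADSCs, 6 (Ccnd1, Ccnd3, Cdk6, E2f2, Cdt1 and Gmnn) passed under every alternative that could be fitted. For E2f2 this is no support, because it was kept for testing through the keratinocyte libraries alone and its call had to point that way. The count was 6, 6, 7 and 6 without the ADSC library of mouse 1, the ADSC library of mouse 2, the keratinocyte library of mouse 1 and the keratinocyte library of mouse 3. Over all genes 4061 were higher and 2555 lower with every library. Without these 4 libraries in turn that became 3712 and 2343, 3389 and 2286, 3536 and 2360, and 3287 and 2269. Of the other 8, Cdc6, E2f8, Mcm4, Mcm7, Pcna, Rrm2 and Mybl2 were each lost without any 1 of these 4 libraries (Mcm7 also without keratinocyte mouse 2), and Kif20a without any ADSC library or keratinocyte mouse 2 or 3, with adjusted p up to 0.13. All 4 calls of in vitro iSEPs against ADSCs passed throughout, as did Cdk6, Ccnd3 and E2f1 for in vivo iSEPs against ADSCs. Against keratinocytes E2f2 alone passed throughout, for both kinds of iSEPs, within the limit its filter sets. The 6 calls of in vitro iSEPs against keratinocytes became 1 to 3 with any 1 of the 6 libraries left out. Calls over all 12364 genes also fell in these fits, from 1403 to between 524 and 1180. The 5 calls of in vivo iSEPs against keratinocytes became 1 without the in vivo library of mouse 2 or the keratinocyte library of mouse 2 or 3, and 2 without the keratinocyte library of mouse 1. Over all genes 421 were higher and 504 lower with every library. Without these 4 libraries in turn that became 204 and 191, 183 and 175, 208 and 216, and 288 and 320.

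D-type cyclins and their kinases start the cycle in response to growth signals. Ccnd1 (cyclin D1, chr7:144929931-144939925 in mm10, minus strand) stood at 20.3, 12.3 and 17.6 FPKM in the ADSCs of mice 1, 2 and 3, at 66.9, 109 and 123 in in vitro iSEPs, at 44.2, 31.5 and 27.7 in in vivo iSEPs and at 58.2, 99.1 and 127 in keratinocytes. All 9 epithelial libraries lay above all ADSC libraries, and the in vivo iSEPs lay between ADSCs and the other 2 groups without overlap. Ccnd1 rose against ADSCs in keratinocytes (log2 difference 2.39, 95% interval 1.70 to 3.09, adjusted p 7.59e-05), in in vitro iSEPs (2.49, 1.79 to 3.18, adjusted p 5.68e-05) and in in vivo iSEPs (1.00, 0.30 to 1.70, adjusted p 0.0222). It was lower in in vivo iSEPs than in keratinocytes (-1.39, adjusted p 0.0231) and than in in vitro iSEPs (-1.49, adjusted p 0.0465), and with the mouse as a block the second of these had an adjusted p of 0.0755. Ccnd1 was the only member called between the 2 kinds of iSEPs. That call was also lost without the in vitro library of mouse 2 or 3 or the in vivo library of mouse 2 or 3, and the call against ADSCs without the ADSC library of mouse 2 or the in vivo library of mouse 1, with adjusted p up to 0.24 and 0.0908.

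Cdk6 (a kinase partner of the D cyclins, chr5:3343893-3531005, plus strand) stood at 1.47, 1.15 and 1.35 FPKM in ADSCs, at 8.14, 10.7 and 12 in in vitro iSEPs, at 6.30, 6.60 and 8.35 in in vivo iSEPs and at 7.42, 7.47 and 8.11 in keratinocytes. Every epithelial library was above every ADSC library, with ratios of mean FPKM of 7.76 for in vitro and 5.35 for in vivo iSEPs and of 5.79 for keratinocytes. In the same order, the log2 differences from ADSCs were 2.26, 1.79 and 1.90, with adjusted p of 3.96e-07, 2.87e-06 and 1.61e-06. Ccnd3 (cyclin D3, chr17:47593467-47599688, plus strand) went the other way, at 34.0, 31.9 and 37.1 FPKM in ADSCs, 23.6, 24.9 and 24.7 in in vitro iSEPs, 24.9, 25.5 and 28.2 in in vivo iSEPs and 19.7, 18.6 and 21.6 in keratinocytes. ADSCs were highest and keratinocytes lowest, with no overlap with any other group. Ccnd3 fell against ADSCs in keratinocytes (-0.75, adjusted p 6.62e-05), in vitro iSEPs (-0.48, adjusted p 0.00171) and in vivo iSEPs (-0.38, adjusted p 0.008), and it was higher in in vivo iSEPs than in keratinocytes (0.37, adjusted p 0.0414), a call that any of 5 single libraries ended when left out, with adjusted p up to 0.184.

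Cdk4 and Ccnd2 (cyclin D2) had the highest mean FPKM of the 54 members. Ccnd2 (chr6:127125709-127151048, minus strand) stood at 145, 163 and 212 FPKM in ADSCs, at 198, 208 and 236 in in vitro iSEPs, at 164, 176 and 114 in in vivo iSEPs and at 104, 154 and 169 in keratinocytes. In vitro iSEPs had the highest mean and lay above all in vivo and keratinocyte libraries, but no comparison of Ccnd2 passed the test (adjusted p 0.0965 against keratinocytes and 0.295 against in vivo iSEPs). Cdk4 ranged from 157 to 246 FPKM over the 12 libraries and was called in no comparison of the fit, although it was called lower in keratinocytes and in in vivo iSEPs than in ADSCs once every library was scaled to the same median.

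**Figure D2:**
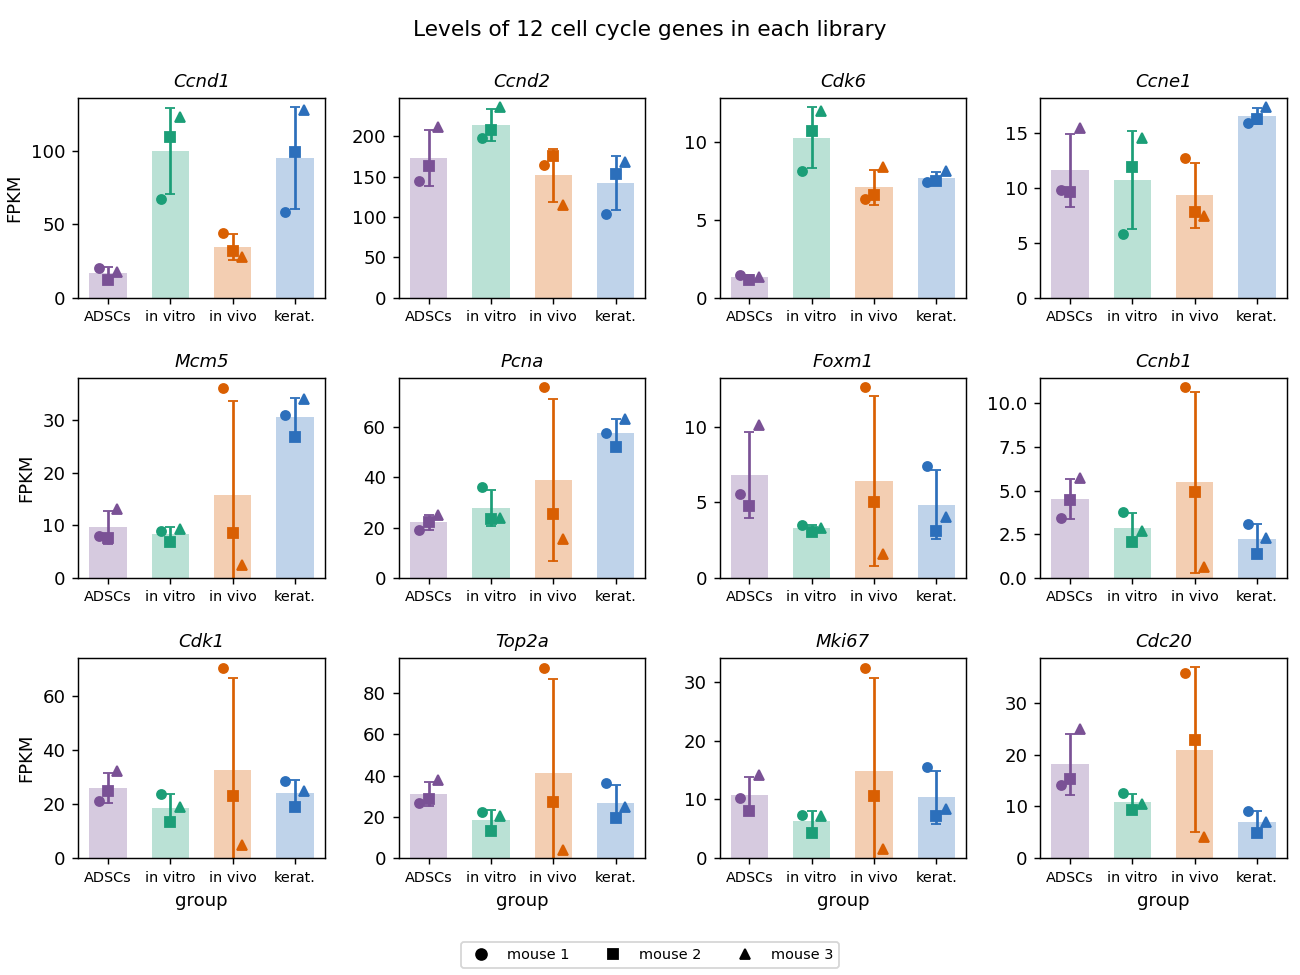
FPKM (vertical axes, from 0) of 12 genes in the 4 groups; bars are group means, whiskers the SD of 3 libraries and symbols the 3 mice. Ccnd1 and Cdk6 are low in all 3 ADSC libraries, Mcm5 and Pcna are high in all 3 keratinocyte libraries, and for most others the in vivo whisker is the longest.

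Cyclin E with Cdk2 and the E2F factors carry the cell from G1 into S phase. Ccne1 (cyclin E1, chr7:38097984-38107490, minus strand) stood at 9.80, 9.59 and 15.4 FPKM in ADSCs, at 5.80, 11.9 and 14.5 in in vitro iSEPs, at 12.7, 7.79 and 7.43 in in vivo iSEPs and at 16, 16.3 and 17.4 in keratinocytes. The 3 keratinocyte libraries lay above the other 9, yet Ccne1 was called in no comparison (adjusted p from 0.137 to 0.886). Ccne2 (cyclin E2, chr4:11191709-11204779, plus strand) stood at 4.83, 5.06 and 8.05 FPKM in ADSCs, at 3.13, 2.91 and 3.04 in in vitro iSEPs, at 12, 3.27 and 1.17 in in vivo iSEPs and at 13.4, 11.5 and 12 in keratinocytes. In vitro iSEPs were below all ADSC and keratinocyte libraries, and the in vivo libraries spanned nearly the whole range of the others. Ccne2 was lower in in vitro iSEPs than in keratinocytes (-1.72, 95% interval -2.78 to -0.66, adjusted p 0.043, and 0.0558 with the mouse as a block).

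E2f1, the founding activator of S phase genes (chr2:154559400-154569426, minus strand), stood at 12.2, 11.5 and 12.6 FPKM in ADSCs, at 5.96, 7.86 and 6.17 in in vitro iSEPs, at 10.4, 5.66 and 6 in in vivo iSEPs and at 11.3, 10.7 and 11.9 in keratinocytes. Both kinds of iSEPs lay below all ADSC and keratinocyte libraries, whereas ADSCs and keratinocytes overlapped. E2f1 fell against ADSCs in in vitro iSEPs (-0.78, adjusted p 0.00495) and in vivo iSEPs (-0.69, adjusted p 0.0111). Against keratinocytes it was lower in in vitro iSEPs (-0.69, adjusted p 0.0401, and 0.0593 with the block), and in vivo iSEPs did not pass (-0.60, adjusted p 0.0831).

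E2f2, another activating E2F (chr4:136180782-136196056, plus strand), stood at 0.185, 0.331 and 0.183 FPKM in ADSCs, at 0.579, 0.111 and 0.805 in in vitro iSEPs, at 0.630, 0.161 and 0.225 in in vivo iSEPs and at 2.83, 2.21 and 2.15 in keratinocytes. It passed the filter on low values through the keratinocyte libraries alone, so its calls in the 3 keratinocyte comparisons (log2 differences of 1.46, -1.20 and -1.35) had to point that way, and its lowest library rests on 13 reads. E2f8, a repressing E2F of late S phase (chr7:48866429-48881041, minus strand), stood at 1.75, 1.68 and 3.30 FPKM in ADSCs, at 4.36, 2.5 and 2.95 in in vitro iSEPs, at 8.96, 3.02 and 0.811 in in vivo iSEPs and at 8.95, 5.76 and 7.21 in keratinocytes. Keratinocytes lay above all ADSC and in vitro libraries, and E2f8 rose there against ADSCs (1.38, adjusted p 0.0329). Cdk2 and the phosphatase Cdc25a, which activates it, ranged from 4.51 to 15.8 and from 4.04 to 7.61 FPKM and were called in no comparison.

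The 12 genes of origin licensing and the replication fork include Mcm helicase subunits, their loading factors, a licensing inhibitor and the sliding clamp. All 12 were higher in each keratinocyte library than in any ADSC library and than in any in vitro iSEP library; over all genes 69.5% and 40.8% did not overlap in those comparisons. Mcm5, a helicase subunit (chr8:75109509-75128439, plus strand), stood at 7.99, 7.67 and 13.2 FPKM in ADSCs, at 8.83, 6.79 and 9.31 in in vitro iSEPs, at 36.2, 8.51 and 2.35 in in vivo iSEPs and at 31, 26.9 and 34.1 in keratinocytes. The keratinocyte libraries agreed closely, whereas the in vivo libraries held both the highest and the lowest Mcm5 value of the study. Its differences of 1.61 (keratinocytes minus ADSCs) and -1.77 (in vitro iSEPs minus keratinocytes) did not pass in the fit of all libraries (adjusted p 0.0526 and 0.098) and passed in the fit without the in vivo libraries (adjusted p 0.0001 and 0.00056).

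Pcna, the sliding clamp of the fork (chr2:132249286-132253180, minus strand), stood at 19.1, 22.1 and 25.1 FPKM in ADSCs, at 36.0, 23.6 and 23.9 in in vitro iSEPs, at 75.9, 25.5 and 15.5 in in vivo iSEPs and at 57.5, 51.9 and 63.2 in keratinocytes. Keratinocytes lay above all ADSC and in vitro libraries, and Pcna rose there against ADSCs (1.35, 95% interval 0.40 to 2.29, adjusted p 0.021). Gmnn, or geminin, the inhibitor that stops a second licensing (chr13:24751845-24761937, minus strand), stood at 6.06, 7 and 9.21 FPKM in ADSCs, at 13.1, 9.15 and 9.62 in in vitro iSEPs, at 34.8, 12.2 and 6.22 in in vivo iSEPs and at 25.2, 21.3 and 23.6 in keratinocytes. It rose in keratinocytes against ADSCs (1.55, adjusted p 0.0116) and was 3.15 times as high by mean FPKM.

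The licensing factors Cdc6 and Cdt1 bring the helicase to origins. Cdc6 (chr11:98907889-98923942, plus strand) stood at 1.10, 0.934 and 2.23 FPKM in ADSCs, at 0.388, 0.784 and 0.847 in in vitro iSEPs, at 2.67, 0.709 and 0.208 in in vivo iSEPs and at 3.66, 3.39 and 4.48 in keratinocytes. Cdt1 (chr8:122568015-122573130, plus strand) stood at 2.83, 3.09 and 5.36 FPKM in ADSCs, at 3.58, 3.39 and 3.44 in in vitro iSEPs, at 6.92, 3.24 and 2.09 in in vivo iSEPs and at 9.87, 8.04 and 10.8 in keratinocytes. For both genes the 3 keratinocyte libraries were above the other 9. Cdc6 and Cdt1 rose in keratinocytes against ADSCs (1.03 and 1.18, adjusted p 0.0272 and 0.00695). Both were lower in in vitro iSEPs than in keratinocytes (-1.54 and -1.23, adjusted p 0.0186 and 0.0257) and in in vivo iSEPs than in keratinocytes (-1.30 and -1.16, adjusted p 0.0474 and 0.0421, which became 0.0746 and 0.064 with the mouse as a block).

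Over the whole licensing and fork group, the median log2 difference of keratinocytes minus ADSCs was 1.20 (range 0.87 to 1.61), beside 0.18 over all genes. The fit of all libraries called 6 of the 12 higher (Gmnn, Pcna, Mcm4, Cdt1, Mcm7 and Cdc6), where 32.8% of all genes were called higher. The fit without the in vivo libraries called all 12, where 36.7% of all genes were called higher. In vitro iSEPs minus keratinocytes had a median of -1.38 (range -1.77 to -1.05) beside -0.02 over all genes. There 2 of the 12 were called lower in the fit of all libraries (6.12% of all genes) and all 12 in the other (11.4%). In vitro iSEPs and ADSCs were close: the median was -0.24 beside 0.15 over all genes. None of the 12 passed in the fit of all libraries, where 53.8% of all genes did. The fit without in vivo libraries called Gmnn higher (0.47) and Cdc45 lower (-0.60) in in vitro iSEPs than in ADSCs, names given after their values had been seen. Of all genes it called 35.3% higher and 24% lower there. All 12 differences of keratinocytes minus ADSCs stayed positive when libraries were scaled to 1 median or quantile normalised. Under either, 4 of the 12 were called higher, beside 2860 and 3178 of all 12364 genes.

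Nucleotide synthesis genes did not share 1 pattern. Rrm2, the cell cycle regulated subunit of ribonucleotide reductase, rose in keratinocytes against ADSCs (68.7 ± 11.7 against 31.3 ± 17.3 FPKM, SD, n = 3, log2 difference 1.22, adjusted p 0.0325). Its partner subunit Rrm1 was highest in iSEPs instead, at 96.2 ± 20.2 FPKM in vitro and 120 ± 68.3 in vivo against 55.3 ± 14.3 in ADSCs and 58.6 ± 6.95 in keratinocytes (SD, n = 3). Rrm1 was called in no comparison of the fit of all libraries and was called higher in in vitro iSEPs than in both ADSCs and keratinocytes in the fit without the in vivo libraries (0.80 and 0.69, adjusted p 0.00793 and 0.043). It was singled out after its values had been seen. Tyms and Tk1, which make and salvage thymidine nucleotides, ranged from 1.74 to 12.3 and from 0.826 to 20.9 FPKM and were called in no comparison of the fit of all libraries.

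Cyclin B with Cdk1 drives entry into mitosis. Ccnb1 (cyclin B1, chr13:100778739-100786486, minus strand) stood at 3.43, 4.46 and 5.70 FPKM in ADSCs, at 3.75, 2.03 and 2.71 in in vitro iSEPs, at 10.9, 4.94 and 0.599 in in vivo iSEPs and at 3.07, 1.36 and 2.31 in keratinocytes. Cdk1 (chr10:69336635-69352912, minus strand) stood at 21.0, 25.0 and 32.2 FPKM in ADSCs, at 23.7, 13.4 and 18.8 in in vitro iSEPs, at 70.7, 23.1 and 4.70 in in vivo iSEPs and at 28.4, 19.1 and 24.7 in keratinocytes. Keratinocytes were below all ADSC libraries for Ccnb1 and overlapped them for Cdk1. Neither gene was called in any comparison: for keratinocytes minus ADSCs the log2 difference was -0.78 (95% interval -2.03 to 0.46, adjusted p 0.266) for Ccnb1 and -0.11 (-1.59 to 1.38, adjusted p 0.906) for Cdk1. The intervals are wide enough to hold a change of more than 1 log2 unit in either direction for Cdk1. In the fit without the in vivo libraries Ccnb1 was called lower in keratinocytes (adjusted p 0.0209).

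The transcription factors of this stage differed from each other. Foxm1 (chr6:128362994-128375886, plus strand) stood at 5.57, 4.78 and 10.1 FPKM in ADSCs, at 3.51, 3.04 and 3.31 in in vitro iSEPs, at 12.6, 5.04 and 1.58 in in vivo iSEPs and at 7.41, 3.10 and 4.01 in keratinocytes. In vitro iSEPs were below all ADSC libraries, and the difference of -0.81 passed only in the fit without the in vivo libraries (adjusted p 0.196 and 0.0389). Mybl2, which encodes B-Myb (chr2:163054635-163084687, plus strand), stood at 1.01, 1.13 and 2.03 FPKM in ADSCs, at 0.877, 0.861 and 1.19 in in vitro iSEPs, at 3.86, 1.34 and 0.306 in in vivo iSEPs and at 4.55, 3.21 and 4.50 in keratinocytes. Like the replication genes, Mybl2 was highest in keratinocytes: it rose against ADSCs (1.10, adjusted p 0.0287) and was lower in in vitro iSEPs than in keratinocytes (-1.36, adjusted p 0.0418, and 0.0595 with the block). Ccna2, Ccnb2, Cdc25b and Cdc25c were called in no comparison of the fit of all libraries.

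The 16 genes of mitotic kinases, checkpoint, spindle, kinetochore and chromosomes execute division. Mki67, the chromosome surface protein used as a proliferation marker (chr7:135689788-135716379, minus strand), stood at 10.2, 8.05 and 14.1 FPKM in ADSCs, at 7.39, 4.25 and 7.10 in in vitro iSEPs, at 32.5, 10.5 and 1.57 in in vivo iSEPs and at 15.5, 7.24 and 8.34 in keratinocytes. Top2a, which untangles replicated chromosomes (chr11:98992947-99024189, minus strand), stood at 26.8, 28.5 and 37.9 FPKM in ADSCs, at 22.2, 13.1 and 20.4 in in vitro iSEPs, at 92.2, 27.3 and 4.12 in in vivo iSEPs and at 36.3, 19.4 and 24.9 in keratinocytes. For both genes ADSCs and keratinocytes overlapped, and all in vitro libraries were below all ADSC libraries. Neither was called in any comparison of the fit of all libraries. For keratinocytes minus ADSCs the differences were -0.09 for Mki67 (95% interval -1.65 to 1.47, adjusted p 0.925) and -0.23 for Top2a (-1.93 to 1.47, adjusted p 0.82).

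Kif20a, a kinesin needed for cytokinesis, stood at 16.7, 18.3 and 30.2 FPKM in ADSCs, at 7.72, 6.62 and 8.92 in in vitro iSEPs, at 27.1, 11.7 and 3.20 in in vivo iSEPs and at 10.3, 5.16 and 6.29 in keratinocytes. ADSCs were above every in vitro and keratinocyte library, and Kif20a was the only member of the group called in the fit of all libraries, where it fell in keratinocytes against ADSCs (-1.47, 95% interval -2.66 to -0.28, adjusted p 0.0396). Its difference for in vitro iSEPs minus ADSCs was -1.34 (adjusted p 0.0562). Cdc20, which activates the anaphase promoting complex (chr4:118432901-118437343, minus strand), stood at 14.1, 15.4 and 24.9 FPKM in ADSCs, at 12.6, 9.37 and 10.6 in in vitro iSEPs, at 35.9, 22.9 and 4.07 in in vivo iSEPs and at 9.08, 4.82 and 6.94 in keratinocytes. Among the 3 groups other than in vivo iSEPs the order was ADSCs, in vitro iSEPs, keratinocytes with no overlap. The Cdc20 difference of -1.26 between keratinocytes and ADSCs had an adjusted p of 0.0854, and of 0.00173 in the fit without the in vivo libraries.

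As a group the 16 mitosis genes had a median difference of -0.57 for keratinocytes minus ADSCs, with 15 of 16 below 0, and of -0.71 for in vitro iSEPs minus ADSCs, with 16 of 16 below 0, beside 0.18 and 0.15 over all genes. The fit without the in vivo libraries called 7 and 9 of the 16 lower in these 2 comparisons, which share their ADSC libraries, and 0 higher. Of all genes it called 22.2% and 24% lower and 36.7% and 35.3% higher. Between in vitro iSEPs and keratinocytes the median was 0.03 beside -0.02 over all genes. None of the 16 was called there in either fit (11.3% and 19.7% of all genes). Scaling every library to the same median, which moved the median of all genes from 0.18 to -0.01 for keratinocytes minus ADSCs, put all 16 mitosis genes below 0. It also changed the split of called members there from 12 higher and 2 lower to 7 and 7. The split of all 12364 genes moved from 4061 higher and 2555 lower to 2860 and 3255. Quantile normalisation gave 8 and 5 members and 3178 and 3111 of all genes.

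**Figure D3:**
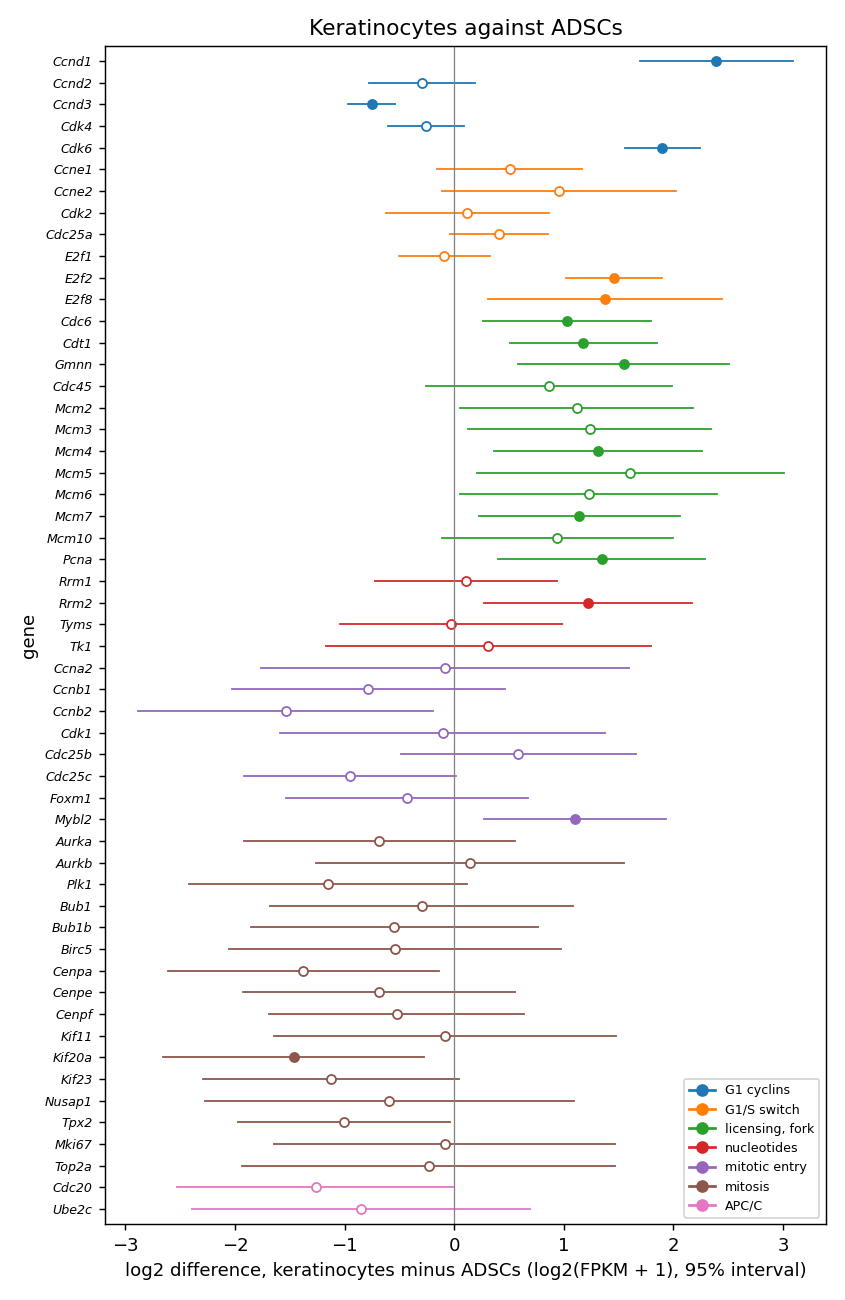
Log2 difference of keratinocytes minus ADSCs (horizontal axis) for the 54 genes (vertical axis, by role) with its 95% interval; filled points passed the test in the fit of all 12 libraries. All 12 licensing and fork genes lie to the right of 0 and 15 of the 16 mitosis genes to the left.

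Set side by side within each library, the 2 groups of genes gave different balances. The mean log2(FPKM + 1) of the 12 licensing and fork genes minus that of the 16 mitosis genes was -0.28, -0.25 and -0.21 in the ADSCs of mice 1, 2 and 3, 0.11, 0.37 and 0.24 in in vitro iSEPs and 1.21, 1.81 and 1.80 in keratinocytes. These 3 groups did not overlap. In vivo iSEPs had -0.10, -0.35 and 0.70, so mice 1 and 2 lay beside ADSCs and mouse 3, with the lowest level of both groups of genes, lay between in vitro iSEPs and keratinocytes.

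**Figure D4:**
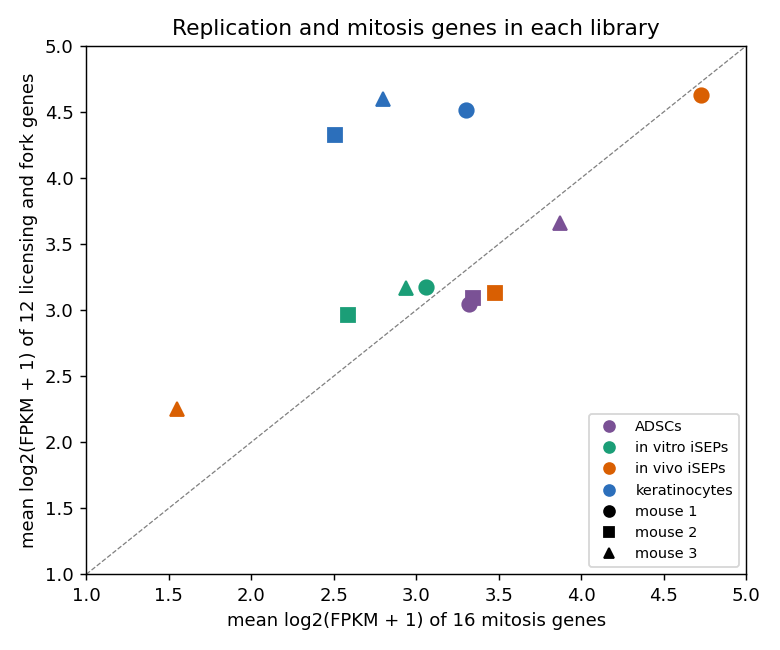
Mean log2(FPKM + 1) of the 12 licensing and fork genes (vertical axis) against that of the 16 mitosis genes (horizontal axis), 1 point per library; the dashed line marks equal means. The 3 keratinocyte libraries lie well above the line and the 3 ADSC libraries just under it. The 3 in vivo libraries run from low to high on both axes, with that of mouse 3 above the line and the others under it.

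Because replication and mitosis genes moved differently, their promoters are shown, as RefSeq gives them for GRCm38.p6 (mm10). Windows of 250 bases before to 50 after the start were found for 43 of the 54 members, in 46 entries; Aurkb, Ccna2, Ccnd1, Ccnd2, Ccne2, Cdc25c, Foxm1, Gmnn, Kif20a, Mcm4 and Tpx2 were not matched. Searched on both strands were an E2F motif (TTTCCCGC, TTTGGCGC, TTTCGCGC or TTTGCCGC), the cell cycle homology region or CHR (TTTGAA or TTCGAA), which binds the complex that carries B-Myb and FoxM1, and the CCAAT box (CCAAT). Of 32851 promoters of all genes 2.26% held the E2F motif, 19.2% the CHR, 37.4% the CCAAT box and 7.52% both of the latter. Of 22 promoters of G1/S, licensing and nucleotide genes 9 held the E2F motif (40.9%), 5 the CHR (22.7%) and 16 the CCAAT box (72.7%). Of 20 promoters of mitotic genes 1 held the E2F motif (5%), 15 the CHR (75%) and 17 the CCAAT box (85%), and 15 held both CHR and CCAAT. The 5 stretches upstream of the start, ending at the base before it, are Mcm5 (chr8:75109349-75109508, plus strand) and Mcm6 (chr1:128359706-128359825, minus strand) for replication, and Cdk1 (chr10:69352913-69353052, minus strand), Cdc20 (chr4:118437344-118437423, minus strand) and Ube2c (chr2:164769829-164769928, plus strand) for mitosis. Each runs 5′ to 3′ on the gene's strand, and capitals mark the motifs on either strand (ATTGG is CCAAT and TTCAAA is TTTGAA read from the other strand). E2F motifs of opposite strands overlap in Mcm5 and Mcm6.
Mcm5: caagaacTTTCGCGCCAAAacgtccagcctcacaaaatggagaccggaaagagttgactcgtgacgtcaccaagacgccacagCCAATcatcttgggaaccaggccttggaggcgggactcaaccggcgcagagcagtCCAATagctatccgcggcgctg
Mcm6: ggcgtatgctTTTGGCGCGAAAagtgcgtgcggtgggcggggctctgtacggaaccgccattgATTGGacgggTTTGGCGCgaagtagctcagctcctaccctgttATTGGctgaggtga
Cdk1: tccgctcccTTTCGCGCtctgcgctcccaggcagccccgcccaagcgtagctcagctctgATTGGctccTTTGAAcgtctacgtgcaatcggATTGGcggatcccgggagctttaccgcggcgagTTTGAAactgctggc
Cdc20: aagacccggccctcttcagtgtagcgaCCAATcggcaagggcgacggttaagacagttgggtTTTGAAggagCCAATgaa
Ube2c: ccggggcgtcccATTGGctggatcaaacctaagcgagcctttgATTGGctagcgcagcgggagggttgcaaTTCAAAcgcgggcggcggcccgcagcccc
Mcm5 and Mcm6 show E2F motifs and CCAAT boxes without a CHR in these stretches, Cdc20 and Ube2c show a CHR with 2 CCAAT boxes, and Cdk1, the 1 mitotic promoter with an E2F motif, shows all 3. A match describes the letters only, and binding was not measured.

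The in vivo iSEP cultures differed widely from each other in cell cycle RNA. Mki67 was at 32.5, 10.5 and 1.57 FPKM in mice 1, 2 and 3, a 20.6-fold gap between mice 1 and 3, and Top2a was 22.4-fold, Cdk1 15-fold, Mcm5 15.4-fold and Ccnb1 18.2-fold higher in mouse 1 than in mouse 3. Mouse 1 held the highest in vivo value for 51 of the 54 members and mouse 3 the lowest for 50 (5664 and 5183 of all 12364 genes). The order mouse 1, mouse 2, mouse 3 held for 49 members (90.7%) and for 31.3% of all 12364 genes. The range over the 3 libraries exceeded 1 log2 unit for 45 members (83.3%, against 17.8% of all genes) and 2 log2 units for 39 (72.2%, against 4.42%). In the other groups 1 (ADSCs), 3 (in vitro iSEPs) and 5 (keratinocytes) members had a range over 1, against 4.69%, 9.84% and 2.70% of all genes. Mouse 1 was the highest library for 31 members in in vitro iSEPs and 36 in keratinocytes (4037 and 5172 of all 12364 genes). In ADSCs mouse 3 was the highest for 49 (3662 of all genes).

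**Figure D5:**
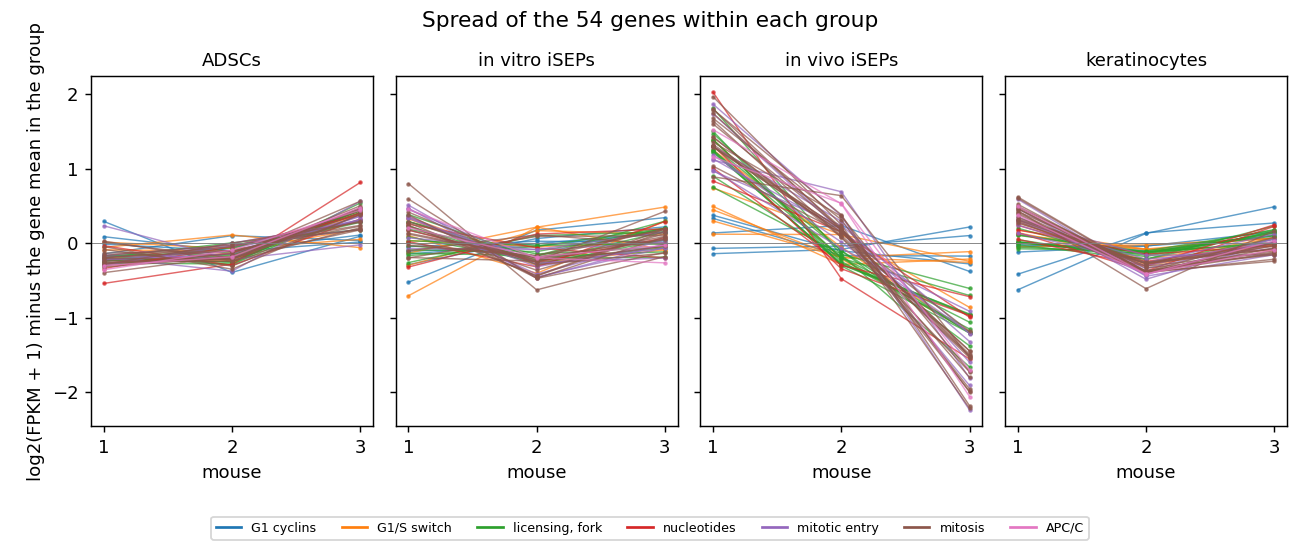
Log2(FPKM + 1) minus the gene's mean in the group (vertical axis) for the 54 genes in the libraries of mice 1, 2 and 3 (horizontal axis; the mouse numbers have no order), 1 panel per group and 1 line per gene, coloured by role. The lines stay close to 0 in ADSCs, in vitro iSEPs and keratinocytes, and fan out in in vivo iSEPs, where nearly all but the G1 genes are above 0 in mouse 1 and below 0 in mouse 3.

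The gap was graded by role. The ratio of mouse 1 to mouse 3 lay between 0.754 and 1.59 for the 5 G1 cyclins and kinases, with Cdk6 lowest and Ccnd1 highest. For the 7 genes of the G1/S switch the median ratio was 2.8, from 1.34 for Cdc25a to 11 for E2f8. Licensing and fork genes had a median of 6.97 (3.31 to 18.7), nucleotide synthesis genes 5.35 (3.42 to 25.3) and mitotic entry genes 11.3 (7.96 to 22.7). The 16 mitosis genes had the highest median, 15, and ranged from 5.21 for Tpx2 to 31.6 for Nusap1, a spindle protein at 29.6, 10.5 and 0.936 FPKM in mice 1, 2 and 3. The 2 partners of the anaphase promoting complex, Cdc20 and Ube2c, had ratios of 8.81 and 13.1. Mouse 2 was nearer to mouse 1 than to mouse 3 for the mitosis genes (median ratios of 2.66 for mouse 1 to 2 and 6.09 for mouse 2 to 3), and the reverse held for licensing and fork genes (3.13 and 2.14).

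Set against the other groups, the in vivo library of mouse 1 had a mean log2(FPKM + 1) over the 54 members of 4.62, above all other libraries (at most 3.90), and that of mouse 3 had 2.25, below all others (at least 3.07). Mouse 2, at 3.50, lay within the range of the other groups. Without mouse 1, in vivo iSEPs minus ADSCs gave 1 member higher and 11 lower (24.4% and 20.6% of all genes, 45% in all) with a median of -0.76. Without mouse 3, the same comparison gave 10 higher and 2 lower (30.3% and 20.5%, 50.8% in all) with a median of 0.51, where the 3 libraries together had -0.20. In vivo iSEPs minus keratinocytes gave 1 higher and 21 lower without mouse 1 (5.18% and 8.37%, 13.6% in all, median -0.84) and 13 higher and 2 lower without mouse 3 (5.4% and 7.61%, 13% in all, median 0.30), where the 3 together had -0.12.

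By role, all 12 licensing and fork genes were called lower than in keratinocytes once mouse 1 was left out (8.37% of all genes). None was called in either direction without mouse 3 (13%). Without mouse 3, 7 of the 16 mitosis genes and both anaphase promoting complex partners were called higher than in keratinocytes (5.4% of all genes). Without mouse 1 none of these 18 was called (13.6% of all genes in either direction). Between in vivo and in vitro iSEPs, which were cultured in the same kind of medium, 47 of the 54 members had a positive difference in the fit of all libraries (median 0.30 beside -0.03 over all genes) and the groups of 3 overlapped for all but the 3 D cyclins, where 15% of all genes did not overlap. That median was -0.31 without mouse 1, with 0 members called higher and 1 lower (1.71% and 1.19% of all genes, 2.9% in all), and 0.95 without mouse 3, with 1 called higher and 0 lower (0.841% and 2.07%, 2.91% in all).

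Other measures also differed between these 3 libraries, and their part in the spread was not tested. Of the CDK inhibitors, which hold cells in G1, Cdkn2a was at 53.8, 49.1 and 167 FPKM in mice 1, 2 and 3, Cdkn2b at 12.3, 18.0 and 74.6, Cdkn1a at 245, 210 and 397 and Cdkn1c at 1.29, 1.25 and 7.21, so these 4 of the 7 were highest in mouse 3. The other 3 were highest in mouse 1: Cdkn1b was at 21.7, 15.4 and 14.8, Cdkn2c at 15.1, 2.67 and 2.22 and Cdkn2d at 12.9, 4.91 and 3.49. Simple epithelial keratins summed to 9.17, 14.7 and 249 FPKM, stromal markers to 28.8, 50.7 and 170, basal keratinocyte markers to 19645, 16630 and 9371 and differentiating keratinocyte markers to 1074, 913 and 337. The sum of the differentiation markers came mostly from Sbsn and Krtdap; Lor, at 6.54, 1.00 and 6.57, and Ivl, at 3.06, 6.35 and 6.06, were not lowest in mouse 3. Immune markers summed to 9.87, 22.5 and 14.8 FPKM, nearly all from Cd68. Simple epithelial keratins summed to 126, 163 and 169 FPKM in keratinocytes of mice 1, 2 and 3 and to 23.9, 104 and 134 in in vitro iSEPs. Stromal markers summed to 30.9, 29.5 and 24.6 there in keratinocytes and to 73.9, 275 and 204 in in vitro iSEPs. Differentiating keratinocyte markers summed to 348, 344 and 306 in keratinocytes and to 2543, 875 and 1975 in in vitro iSEPs. Basal keratinocyte markers were at least 17531 in both groups.

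Genes of the same pathways outside the 54 gave further values. Of 44 other S phase genes, 15 rose and 0 fell in keratinocytes against ADSCs, where 32.8% and 20.7% of all genes were called higher and lower, so the share that rose was near the background (median 0.89 beside 0.18 over all genes). The largest rises were those of the flap endonuclease Fen1 (31 against 9.46 FPKM, log2 difference 1.65) and the chromatin assembly subunit Chaf1b (18.5 against 5.56, 1.59). In vitro iSEPs against keratinocytes had 4 of the 44 lower and 0 higher, where 6.12% and 5.22% of all genes were called lower and higher. The 4 were led by Dut, which removes dUTP (-2.08), and Gins2, a subunit of the replicative helicase (-1.33). Of 46 other mitosis genes only Ckap2, a spindle protein, was called between keratinocytes and ADSCs (-1.28), against 53.5% of all genes. Pttg1, or securin, was higher in in vitro and in in vivo iSEPs than in ADSCs (0.58 and 0.65). Cks1b, a small partner of the cyclin-dependent kinases, was lower in in vitro iSEPs than in ADSCs (-0.94). No other gene of the 46 was called between either kind of iSEPs and ADSCs, against 53.8% (in vitro) and 47.6% (in vivo) of all genes. In the in vivo libraries all 46 and 43 of the 44 followed the order mouse 1, mouse 2, mouse 3, against 31.3% of all genes.

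Of 7 CDK inhibitors, 3 fell in keratinocytes against ADSCs (20.7% of all genes), led by Cdkn2a (19.3 against 68.1 FPKM, -1.77) and Cdkn2c (3.62 against 10.7, -1.34), and none rose. Cdkn2a was higher in in vitro iSEPs (103 FPKM, log2 difference 2.31, adjusted p 0.00769) and in in vivo iSEPs (90.0, 1.95, adjusted p 0.0194) than in the same keratinocytes. Cdkn1b was lower in in vitro iSEPs than in keratinocytes (10.7 against 24.4 FPKM, -1.08). Of 15 pocket protein, other E2F and MuvB genes, 4 rose and 1 fell in keratinocytes against ADSCs, no larger a share than the 32.8% and 20.7% of all genes, and 2 rose and 4 fell in in vitro iSEPs against ADSCs (32.1% and 21.7% of all genes). The largest rises in keratinocytes were those of the pocket protein Rbl1 (10.8 against 2.78 FPKM, 1.65) and Rb1, which encodes the retinoblastoma protein (9.37 against 4.81, 0.82). Rb1 was also higher in in vivo iSEPs than in ADSCs (0.86). Lin9, a MuvB subunit, and Tfdp2, a partner of the E2Fs, were lower in in vitro iSEPs than in keratinocytes (-0.81 and -0.70). E2f5, which acts with the pocket proteins in repression, was lower in in vivo iSEPs than in ADSCs (-0.76) and keratinocytes (-0.53).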

How the data were processed

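RNA-seq was deposited by the authors as 1 table of FPKM values for 24537 genes in 12 libraries; per the file headers it was made with HOMER on exons of mm10 genes, counting the plus strand and condensing genes. Per the submitters' processing notes, reads were checked with FastQC 0.11.5 and aligned with STAR 2.5.1b. FPKM corrects for length and depth but not for RNA composition, so scaling was varied. Another 3 per-sample columns could not be matched to a sample by name and were not used. Whole reads recovered from low FPKM values (100% whole within 0.15 reads) gave depths of 21010000 to 27770000 reads in genes.

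Groups and mouse numbers came from the labels, which give the cultures of 1 number in all 4 groups as the same animal; p-values measure the spread between these 3 cultures. Members and gene lists were chosen with earlier results of these data known. Genes at 1 FPKM or more in at least 3 libraries were kept, 12364 genes with all 54 members. Values were log2(FPKM + 1), so fold changes of low genes are understated. The 6 group pairs were tested with limma 3.58.1 (R 4.3.3, variance trend, Benjamini-Hochberg adjustment over all genes in each pair), called at an adjusted p below 0.05, and the code was tested on simulated data. Tables and figures used Python 3.11.15, pandas 2.3.3 and matplotlib 3.10.9.

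By a rule set with the tests, values in every library are given for 12 members (Mki67, Top2a, Ccnd1, Ccnd2, Cdk6, Ccne1, Ccnb1, Cdk1, Mcm5, Pcna, Foxm1 and Cdc20) and for up to 5 called members per comparison and direction with the largest difference; of each other pathway list, up to 2 called genes per comparison and direction. Alternatives were a pseudocount of 0.1, no filter, a filter at 5 FPKM, median scaling, quantile normalisation, fits of only the 2 groups compared, no variance trend, the mouse as a block, each library left out and, added after seeing the data, a fit without the in vivo libraries. Deviations of same-mouse libraries from their group means correlated over all genes between -0.18 and 0.21 (median 0.045), against -0.29 to 0.31 (median -0.014) for libraries of different mice. Over the 54 members alone the same-mouse correlations ran from -0.55 to 0.57 and the others from -0.72 to 0.74.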

Additional observations from a re-analysis of the deposited data

How the results depend on the processing

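Of 34 calls of members over the 6 comparisons, 15 held under every alternative run, and no called difference changed sign. The 15 include the calls of E2f2, which passed the filter on low values through the keratinocyte libraries alone. E2f2 was not tested under the filter at 5 FPKM. With the replicate block for the mouse, the pairing the labels give, members called numbered 16 in keratinocytes against ADSCs, 4 and 4 in in vitro and in vivo iSEPs against ADSCs, 3 and 3 against keratinocytes and 0 between the kinds of iSEPs. Of all 12364 genes the block called 3969 higher and 2537 lower in keratinocytes against ADSCs. It called 3903 and 2674 in in vitro iSEPs and 3357 and 2432 in in vivo iSEPs against ADSCs. Against keratinocytes it called 605 and 665 in in vitro iSEPs and 391 and 454 in in vivo iSEPs. Between the kinds of iSEPs it called 62 and 66. The block added Ccnb2 and Cenpa and removed Ccne2, E2f1 and Mybl2 (in vitro iSEPs against keratinocytes), Cdc6 and Cdt1 (in vivo iSEPs against keratinocytes) and Ccnd1 (between iSEPs), and changed no other call. Fits of only the 2 groups compared called 35, 23, 20, 1 and 0 members in keratinocytes against ADSCs, in vitro iSEPs against ADSCs, in vitro and in vivo iSEPs against keratinocytes, and between the kinds of iSEPs. The shares of all genes, in that order, were 62.6%, 53.1%, 16.7%, 3.43% and 0.00809%. Leaving out all in vivo libraries gave 32, 23 and 20 members in the first 3 of these comparisons (58.9%, 59.3% and 19.7% of all genes). For in vitro iSEPs against keratinocytes no filter and the filter at 5 FPKM each gave 3. All genes called were then 538 higher and 759 lower of 19261, and 540 and 537 of 9293. For in vivo iSEPs against keratinocytes a pseudocount of 0.1, no filter, the filter at 5 FPKM and quantile normalisation each gave 3, and no filter gave 0 between the kinds of iSEPs. In the same order, all genes called against keratinocytes were 452 higher and 445 lower of 12364, and 402 and 543 of 19261. They were 330 and 355 of 9293 and then 511 and 436 of 12364. Between the kinds of iSEPs no filter called 66 and 72 of 19261. The cause was not tested; the filter at 5 FPKM tested 48 members.

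With 1 library left out, members called ranged from 6 to 14 in keratinocytes against ADSCs, 4 to 4 and 3 to 12 in in vitro and in vivo iSEPs against ADSCs, 1 to 3 and 1 to 22 in in vitro and in vivo iSEPs against keratinocytes, and 0 to 1 between iSEPs. The in vivo counts of 12 came without mouse 1 or mouse 3, and those of 22 and 15 against keratinocytes without mouse 1 and mouse 3. Between iSEPs 0 were called without in vitro mouse 2 or 3 or in vivo mouse 2. Over all 12364 genes, calls with 1 library left out ranged from 5556 to 6055 in keratinocytes against ADSCs. They ranged from 5791 to 6297 and 5006 to 6281 in in vitro and in vivo iSEPs against ADSCs. Against keratinocytes the ranges were 524 to 1180 and 358 to 1676, and between iSEPs 58 to 360. The median difference of the 54 members ranged from -0.11 to 0.14, -0.52 to -0.27, -0.76 to 0.51, -0.61 to -0.24, -0.84 to 0.30 and -0.31 to 0.95 in the order of the report. Depth limits E2f2, Cdc6, Tk1, Mybl2, Mcm10, Cdc25c and Ccnb1 most, whose lowest libraries rest on 13, 30, 35, 36, 40, 43 and 44 reads.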
